A study of Mus musculus with 8 samples.

Results

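The genes described here are 10 regulators and markers of the epithelial to mesenchymal transition (EMT), measured in mouse embryonic fibroblasts (MEFs). They are the mesenchymal transcription factor genes Snai1, Snai2, Twist1, Twist2, Zeb1 and Zeb2, the mesenchymal cadherin genes Cdh2 and Cdh11, and the epithelial transcription factor genes Grhl2 and Ovol1. They were chosen by name out of 55358 genes, and a gene's level was the sum of the FPKM of its transcripts, a measure of sequenced fragments scaled to transcript length and library depth. In all, 8 of the 10 reached 1 FPKM in at least 2 of the 8 libraries and were tested among 13693 such genes. Grhl2 and Ovol1 stayed below that level in every library and are given by their values only.

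The libraries came from wild-type (WT) and Arid5a-/- (KO) MEFs cultured for 24 h either untreated or with interleukin-6 (IL-6) at 100 ng/ml, giving 4 groups of 2 libraries. Arid5a encodes an RNA-binding protein known to stabilise transcripts such as Il6 and Stat3, and the study asked how IL-6 acts on RNA through it. Whether both libraries of a group were made from separate cultures or embryos is not stated in the labels, so the p-values rest on the spread among these libraries alone, and that spread may be technical. They name no strain, embryonic age, passage or sex, and do not say which piece of Arid5a was removed.

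In the EMT, epithelial cells lose their cell junctions and apical and basal sides and take on the shape and motility of mesenchymal cells. Zinc finger proteins of the Snail family (Snai1, Snai2) and the ZEB family (Zeb1, Zeb2) bind E-box sequences in promoters of epithelial genes such as Cdh1 and repress them. Twist1 and Twist2 are basic helix-loop-helix proteins that bind other E-boxes as dimers with E proteins and are known for their roles in limb, skull and skin mesenchyme. Cdh2 (N-cadherin) and Cdh11 (OB-cadherin) are adhesion proteins of mesenchymal cells, while Grhl2 and Ovol1 keep the epithelial programme active and repress Zeb1. Fibroblasts are mesenchymal from the start, so in cultures labelled MEFs these genes were read as a state and not as a transition.

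Total depth recovered from the steps of the low FPKM values was 37100000 to 46900000 fragments per library, to 3 significant digits. Arid5a was measured at 18.7 and 15.9 FPKM in untreated WT, 30.9 and 31.0 FPKM in IL-6-treated WT, 5.51 and 6.85 FPKM in untreated KO and 8.47 and 8.15 FPKM in IL-6-treated KO, so all KO libraries were below all WT libraries but not at 0. The cultures differed in more than genotype. Xist, which is transcribed from the inactive X chromosome of female cells, was at 55.2 FPKM or more in the KO libraries and at 0.00562 FPKM or less in the WT libraries, and the Y-linked gene Ddx3y was at 34.6 FPKM or more in WT and at 0.00746 FPKM or less in KO. All 10 fibroblast markers exceeded 1 FPKM on average in WT and 8 of 10 did in KO, where Thy1 and Lum did not, and their summed level was 7681 to 8926 FPKM in WT and 5180 to 5370 FPKM in KO. Of these markers 3 were higher in untreated KO (Col1a1, Col3a1 and Dcn) and 6 lower, and S100a4 and Vim made up most of the WT sum. For this and the next marker counts, 71.0% of all tested genes passed between the untreated genotypes, and 34.5% passed as lower in KO. Summed mesothelial markers reached 1967 to 2024 FPKM in KO against 39.3 to 53.4 FPKM in WT, with 11 of 11 higher in untreated KO. Of these, Wt1 and Lrrn4 were at 0 in WT, whereas Msln was at 34.2 to 46.7 FPKM there and made up most of the WT sum. Summed limb mesenchyme markers reached 302 to 340 FPKM in WT against 19.9 to 21.7 FPKM in KO, with 9 of 9 tested markers lower in untreated KO. A mean of at least 1 FPKM was reached by 2 mesothelial markers in WT and 11 in KO, and by 9 limb markers in WT and 3 in KO. Markers that passed the filter through 1 genotype alone could only be higher in that genotype, so these 2 counts add little to the summed levels. Genotype, sex and the origin of the cultures therefore cannot be told apart in any comparison of KO with WT below, and in bulk RNA fewer cells of a type and less RNA per cell cannot be told apart either.

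The promoter windows of Snai1, Twist1 and Twist2 show what the regulators' own start sites hold. Those of 2 epithelial genes hold an E-box form that Snail and ZEB proteins are known to bind, and binding was not measured here. RefSeq promoter sequences on GRCm38.p6 matched 4 of the 10 genes (Snai1, Twist1, Twist2 and Zeb2). Each line holds the 250 bases before the start, 5′ to 3′ on the gene's strand, and capitals mark CAGGTG or its reverse complement CACCTG, the E-box form that Snail and ZEB proteins are known to bind. The windows are Snai1 at chr2:167537945-167538194 (plus strand), Twist1 at chr12:33957421-33957670 (plus strand), Twist2 at chr1:91801211-91801460 (plus strand), Lsr at chr7:30973470-30973719 (minus strand) and Epcam at chr17:87635729-87635978 (plus strand). Lsr (the lipolysis-stimulated lipoprotein receptor, a protein of tricellular junctions) and Epcam (an epithelial adhesion protein) were chosen after their values were seen. Lsr held the most such boxes among the listed epithelial genes that had a promoter sequence.
Snai1: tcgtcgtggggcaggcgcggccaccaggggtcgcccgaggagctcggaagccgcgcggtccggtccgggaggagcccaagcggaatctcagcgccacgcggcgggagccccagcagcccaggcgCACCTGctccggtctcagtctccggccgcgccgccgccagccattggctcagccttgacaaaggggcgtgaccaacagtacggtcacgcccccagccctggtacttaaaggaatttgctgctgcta
Twist1: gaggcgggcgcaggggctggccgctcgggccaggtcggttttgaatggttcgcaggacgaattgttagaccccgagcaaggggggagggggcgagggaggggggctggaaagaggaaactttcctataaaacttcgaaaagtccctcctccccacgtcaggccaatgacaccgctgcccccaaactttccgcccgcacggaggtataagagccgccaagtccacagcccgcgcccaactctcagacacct
Twist2: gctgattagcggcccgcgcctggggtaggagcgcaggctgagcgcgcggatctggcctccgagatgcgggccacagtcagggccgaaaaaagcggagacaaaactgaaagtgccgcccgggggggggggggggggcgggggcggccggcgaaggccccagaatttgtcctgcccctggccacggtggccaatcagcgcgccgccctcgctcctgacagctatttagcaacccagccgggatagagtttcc
Lsr: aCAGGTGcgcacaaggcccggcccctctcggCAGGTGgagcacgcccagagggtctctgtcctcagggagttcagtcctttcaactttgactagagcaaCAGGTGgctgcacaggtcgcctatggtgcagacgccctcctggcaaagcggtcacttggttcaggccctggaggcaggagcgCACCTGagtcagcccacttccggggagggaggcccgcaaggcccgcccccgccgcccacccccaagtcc
Epcam: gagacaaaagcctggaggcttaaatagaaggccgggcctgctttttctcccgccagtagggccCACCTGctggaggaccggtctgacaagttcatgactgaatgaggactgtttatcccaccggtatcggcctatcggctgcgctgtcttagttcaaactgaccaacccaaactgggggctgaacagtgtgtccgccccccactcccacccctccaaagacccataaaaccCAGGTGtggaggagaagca
The Snai1 window held 1 such box, beginning 126 bases before the start, and the Twist1 and Twist2 windows held none. The Lsr window held 4, beginning 249, 219, 151 and 69 bases before the start, and the Epcam window held 2, at 187 and 19 bases. Of 32536 distinct promoter windows of the same length, 17.3% held at least 1 box on either strand and 0.0430% held at least 4. The 4 windows of Zeb2, which has several starts, held none. A STAT-type motif, TTCNNNGAA on either strand, stood in none of the Snai1, Twist1 and Twist2 windows and in 7.04% of all windows. At Zeb2 it was found in the windows of 2 alternative starts that overlap, as TTCTGTGAA. A match describes the letters only.

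Counted by gene, 5252 of 27025 genes with a promoter sequence (19.4%) held the box in at least 1 window. Among 40 epithelial genes listed as repressed in the EMT, 21 had a promoter sequence and 17 of those held the box, as did 5 of 11 epithelial transcription factor genes and 6 of 18 genes of catenins and cadherin linkers. The count was 2 of 15 for other cadherins, 2 of 13 for TGF-beta genes, 1 of 24 for co-repressors and turnover factors, 1 of 7 for study genes, 0 of 22 for mesenchymal genes and 0 of 13 for other EMT transcription factors and partners. The epithelial list was written from knowledge of genes that Snail and ZEB proteins repress, so its count is not independent of the motif. Of the 17 genes with the box, 6 were higher and 2 lower in untreated KO than in untreated WT, 2 did not pass the test and 7 were below the filter. Of the 4 without it, 1 was higher, 1 lower and 2 were below the filter. Over all tested genes 71.0% passed in that comparison, and 34.5% passed as lower in KO. Whether the box bears on these calls was not tested.

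In untreated WT fibroblasts the mesenchymal factors and cadherins were all well expressed. Cdh11 had the highest level of the 10 genes at 81.6 ± 2.26 FPKM (SD, n = 2), followed by Twist2 at 45.4 ± 2.78 FPKM and Twist1 at 38.5 ± 0.850 FPKM. Zeb1 (27.4 ± 1.26 FPKM) and Snai2 (26.6 ± 0.275 FPKM) had overlapping values, and Cdh2 (24.5 ± 0.106 FPKM), Snai1 (17.2 ± 0.491 FPKM) and Zeb2 (15.1 ± 0.383 FPKM) came next without overlap. In the untreated KO libraries the order was different, with Cdh2 first at 82.1 ± 1.61 FPKM and Cdh11 second at 56.9 ± 0.360 FPKM. Twist1 (14.4 ± 0.823 FPKM) and Zeb1 (14.2 ± 2.03 FPKM) overlapped, as did Zeb2 (10.2 ± 1.64 FPKM) and Snai1 (9.29 ± 0.602 FPKM). Snai2 stood at 7.43 ± 0.255 FPKM and Twist2, second of the 10 genes in WT, was the lowest of the 8 tested genes in KO at 2.62 ± 0.448 FPKM.

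**Figure D1:**
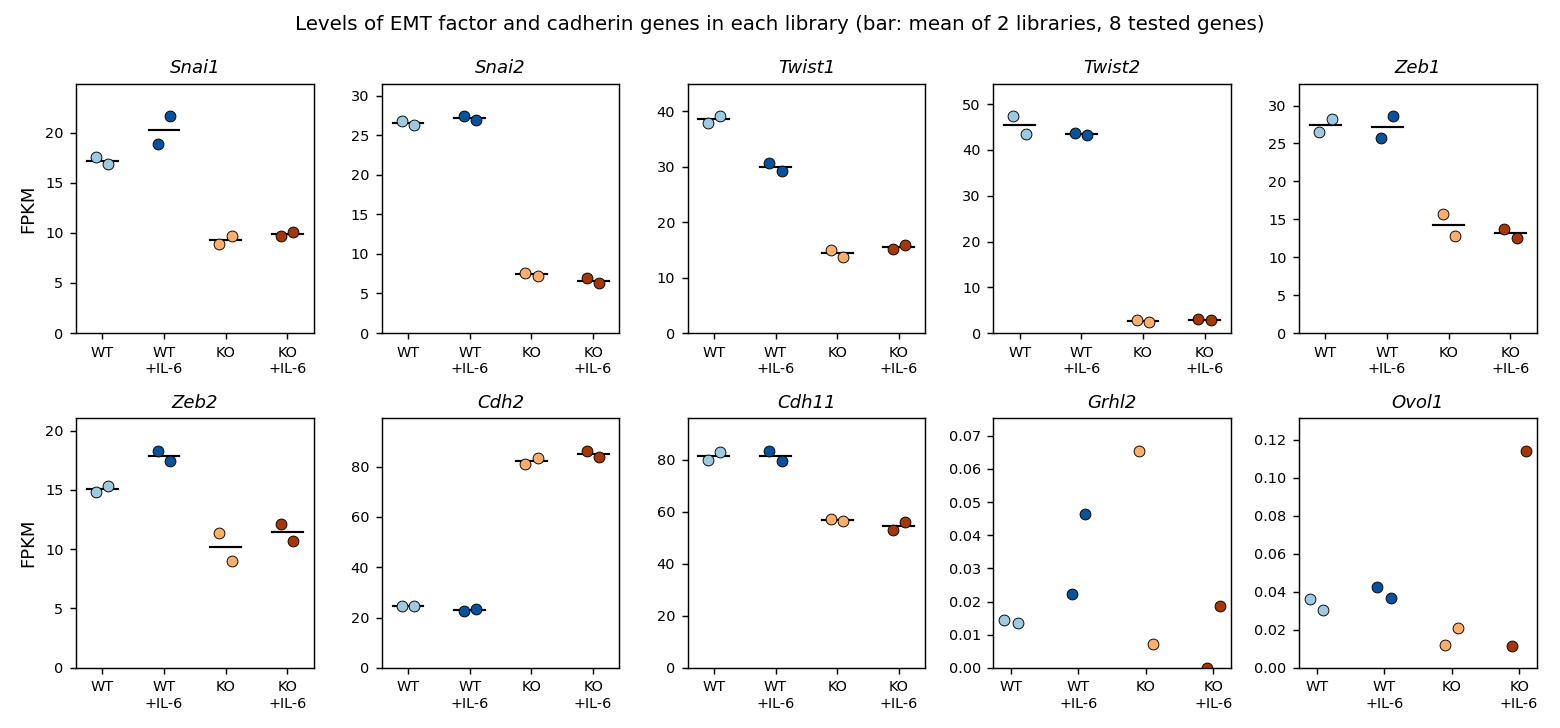
Level in FPKM (vertical axis, linear, from 0, scaled per gene) of each of the 10 genes in the 8 libraries. Points are libraries and bars are means of 2 libraries, drawn for the 8 tested genes. KO libraries lie below all WT libraries for the 6 mesenchymal factors and Cdh11 and above them for Cdh2, whereas Grhl2 and Ovol1 stay at or below 0.114 FPKM.

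The largest genotype difference among the 10 genes was in Twist2, which encodes a repressor active in dermal and limb mesenchyme. Its level was 47.4 and 43.5 FPKM in untreated WT, 43.6 and 43.2 FPKM in IL-6-treated WT, 2.94 and 2.30 FPKM in untreated KO and 3.14 and 2.75 FPKM in IL-6-treated KO. The groups of the 2 genotypes lay far apart, and the KO mean was 5.77% of WT without IL-6 and 6.78% with IL-6. The log2 change of FPKM + 1 was -3.69 ± 0.094 (SE, adjusted p = 3.44e-08) without IL-6 and -3.50 (adjusted p = 4.30e-08) with IL-6. An antisense gene, Gm29100, overlaps Twist2, and since strand use in counting is not given in the sources used here, reads of such a pair may be shared.

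Twist1, the paralog needed for limb and cranial mesenchyme, was measured at 37.9 and 39.1 FPKM in untreated WT and 14.9 and 13.8 FPKM in untreated KO. With IL-6 it was at 30.7 and 29.3 FPKM in WT and 15.2 and 15.9 FPKM in KO. Every KO value was below every WT value. The KO mean was 37.3% of WT without IL-6 (log2 change -1.36 ± 0.054, adjusted p = 3.70e-07) and 51.8% with IL-6 (-0.91, adjusted p = 3.30e-06). The ratio of Twist2 to Twist1 FPKM was 1.11 to 1.47 over the WT libraries and 0.167 to 0.207 over the KO libraries.

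Snai2 (Slug), a repressor known from neural crest and mesenchymal progenitors, was measured at 26.8 and 26.4 FPKM in untreated WT, 27.4 and 27.0 FPKM in IL-6-treated WT, 7.61 and 7.25 FPKM in untreated KO and 6.95 and 6.30 FPKM in IL-6-treated KO. The genotypes did not overlap. Its log2 change was -1.71 ± 0.057 (adjusted p = 1.34e-07) without IL-6 and -1.89 (adjusted p = 7.11e-08) with IL-6. Snai1 (Snail), its paralog and a short-lived repressor of Cdh1, stood at 17.5 and 16.8 FPKM for untreated WT, 18.9 and 21.7 FPKM in IL-6-treated WT, 8.87 and 9.72 FPKM in untreated KO and 9.69 and 10.1 FPKM in IL-6-treated KO. Here too all KO libraries were lower, with KO means at 54.0% and 48.8% of WT without and with IL-6. The log2 changes were -0.82 ± 0.076 (adjusted p = 3.77e-05) and -0.96 (adjusted p = 1.51e-05). Snai2 was above Snai1 in each WT library (ratio 1.24 to 1.57) and below it in each KO library (0.622 to 0.859).

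Zeb1, a repressor of Cdh1 and of other junction genes, was measured at 26.5 and 28.3 FPKM in untreated WT, 25.7 and 28.6 FPKM in IL-6-treated WT, 15.7 and 12.8 FPKM in untreated KO and 13.7 and 12.6 FPKM in IL-6-treated KO. Zeb2, which is also known from neural crest and Schwann cells, stood at 14.8 and 15.3 FPKM for untreated WT, 18.3 and 17.5 FPKM in IL-6-treated WT, 11.4 and 9.04 FPKM in untreated KO and 12.1 and 10.7 FPKM in IL-6-treated KO. For both genes the highest KO library was below the lowest WT library. Zeb1 changed by -0.90 ± 0.099 on the log2 scale without IL-6 (adjusted p = 0.000101) and by -0.99 with IL-6 (adjusted p = 5.68e-05). Zeb2 changed by -0.53 ± 0.10 (adjusted p = 0.00222) and -0.61 (adjusted p = 0.00104).

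Summed over Snai1, Snai2, Twist1, Twist2, Zeb1 and Zeb2, the level was 165 to 171 FPKM in the WT libraries and 54.9 to 61.4 FPKM in the KO libraries. Beside these sums, the summed limb mesenchyme markers, which hold Prrx1 and other genes but none of the 6 factors, were lower in every KO library, as given above. Their part in the result was not tested.

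Cdh2 went the other way from the factors. N-cadherin is the cadherin that epithelial cells are known to gain in the EMT. Its gene was measured at 24.6 and 24.4 FPKM in untreated WT, 22.8 and 23.5 FPKM in IL-6-treated WT, 81.0 and 83.3 FPKM in untreated KO and 86.3 and 84.0 FPKM in IL-6-treated KO. All KO values were far above all WT values, 3.36-fold without IL-6 (log2 change 1.71 ± 0.038, adjusted p = 1.84e-08) and 3.68-fold with IL-6 (1.83, adjusted p = 1.19e-08).

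Cdh11, the cadherin of loose mesenchyme and osteoblasts, stood at 80.0 and 83.2 FPKM for untreated WT, 83.5 and 79.6 FPKM in IL-6-treated WT, 57.1 and 56.6 FPKM in untreated KO and 53.0 and 56.2 FPKM in IL-6-treated KO. The genotypes did not overlap, and the log2 change was -0.51 ± 0.045 (adjusted p = 2.86e-05) without IL-6 and -0.57 (adjusted p = 1.52e-05) with IL-6. The ratio of Cdh2 to Cdh11 FPKM was 0.273 to 0.307 in WT and 1.42 to 1.63 in KO, so the more abundant of the pair was Cdh11 in each WT library and Cdh2 in each KO library.

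Thus 8 of 8 tested genes passed the test between the genotypes both without and with IL-6, 7 of them lower and 1 higher in KO. These counts stand against a background in which 71.0% of all tested genes passed without IL-6 and 71.7% with IL-6. Lower in KO were 34.5% of all tested genes without IL-6 and 34.8% with IL-6, against 7 of 8 here. All 8 kept their direction and their call under every alternative tried.

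**Figure D2:**
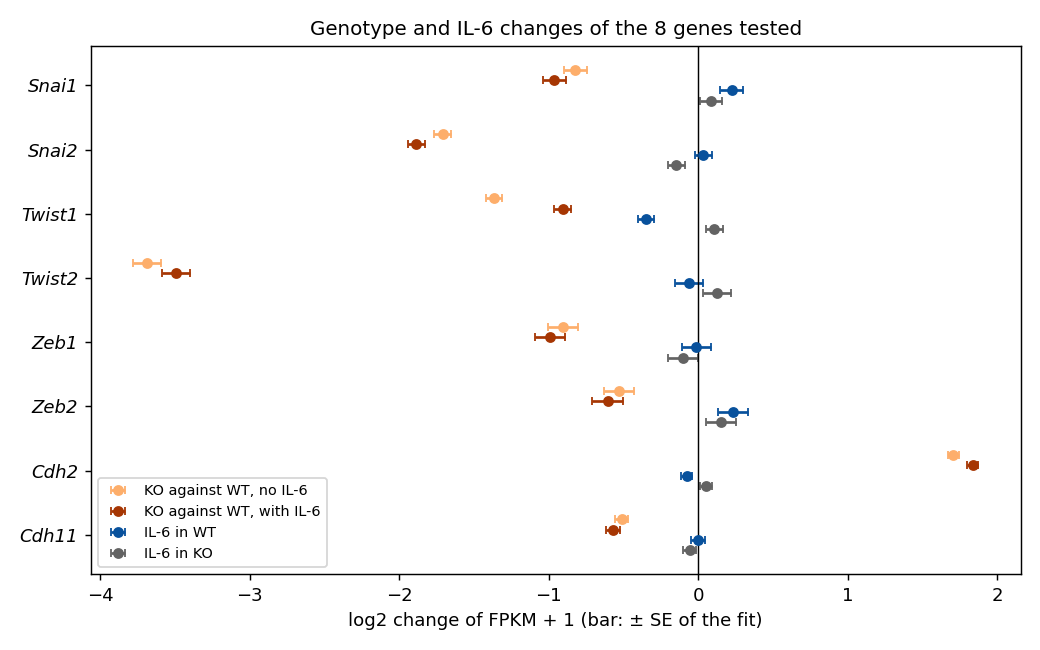
Log2 change of FPKM + 1 (horizontal axis) for the 8 tested genes in 4 comparisons, with bars of ± 1 SE of the fit. The genotype changes of 7 genes lie left of 0 and that of Cdh2 lies right of 0, while the IL-6 changes lie within 0.35 of 0 in both genotypes.

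The epithelial factors Grhl2 and Ovol1 were at the limit of detection. Grhl2 was measured at 0.0143 and 0.0134 FPKM in untreated WT, 0.0222 and 0.0463 FPKM in IL-6-treated WT, 0.0654 and 0.00707 FPKM in untreated KO, and 0 and 0.0186 FPKM in IL-6-treated KO, which is at most 3 fragments in any library. Ovol1 stood at 0.0364 and 0.0306 FPKM for untreated WT, 0.0424 and 0.0365 FPKM in IL-6-treated WT, 0.0119 and 0.0211 FPKM in untreated KO, and 0.0114 and 0.114 FPKM in IL-6-treated KO. The last of these, about 15 fragments, stood apart from the other library of its group. The groups of both genes overlapped or rested on so few fragments that no difference was detectable at this depth, and without the filter neither gene passed any of the 5 comparisons.

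For IL-6 in WT, 1 of the 8 tested genes passed the test, a share near the 15.7% of all tested genes. That gene was Twist1, which was lower in both IL-6-treated libraries than in both untreated ones, by -0.35 ± 0.054 on the log2 scale (adjusted p = 0.00584). Snai1 was higher in both treated libraries, by 0.22 ± 0.076, and had an unadjusted p of 0.0199 and an adjusted p of 0.0924. Zeb2 was also higher in both, by 0.23 ± 0.10 (adjusted p = 0.180). The values for Snai2 (0.03 ± 0.057), Twist2 (-0.06 ± 0.094), Zeb1 (-0.01 ± 0.099), Cdh2 (-0.08 ± 0.038) and Cdh11 (-0.00 ± 0.045) came with adjusted p of 0.231 to 0.996.

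In KO, 0 of the 8 genes passed for IL-6 in the limma fit, and 1 of 8, Snai2, had an unadjusted p below 0.05. Its log2 change was -0.15 ± 0.057, with an unadjusted p of 0.0355 and an adjusted p of 0.636 in limma. Of all tested genes 0.0219% of all tested genes passed, that is 3 of 13693, and 1025 stood at an unadjusted p below 0.05. The 8 log2 changes lay between -0.15 and 0.15. Whether IL-6 acted differently in the 2 genotypes was tested as the IL-6 change in KO minus that in WT, and 6.06% of all tested genes passed. Twist1 was the 1 of 8 genes that did, with a difference of 0.46 ± 0.077 (adjusted p = 0.0170). It fell in WT, whereas its KO change was 0.11 ± 0.054 (adjusted p = 0.722). This call ended when the library labelled replicate 2 of any of the 4 groups was left out (adjusted p = 0.0585 to 0.0687). Cdh2 (0.13 ± 0.054, adjusted p = 0.230), Snai2 (-0.18 ± 0.080, adjusted p = 0.258) and Twist2 (0.19 ± 0.13, adjusted p = 0.472) also had opposite signs in WT and KO, and none of these differences passed.

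The IL-6 signal itself was measured in the same libraries through the genes the study is about. Socs3, the feedback inhibitor induced by STAT3, stood at 23.5 and 21.5 FPKM for untreated WT, 60.3 and 57.5 FPKM with IL-6, 16.02 and 16.9 FPKM in untreated KO and 23.9 and 25.4 FPKM in KO with IL-6. Both genotypes had higher Socs3 with IL-6, and the log2 change was 1.35 ± 0.060 (adjusted p = 2.87e-05) for WT. For KO it was 0.55 ± 0.060 (adjusted p = 0.0774), and this passed with a filter of 5 FPKM (adjusted p = 0.0451). Of the 7 study genes, 5 rose with IL-6 in WT (15.7% over all tested genes), among them Stat3 (0.62 ± 0.037), Il6 (1.46 ± 0.10) and Il6st, the shared receptor chain gp130 (0.55 ± 0.041). Between untreated genotypes 2 of 7 were higher and 4 lower in KO (71.0% over all tested genes). The IL-6 receptor gene Il6ra was lower in KO (log2 change -2.02 ± 0.068) and the pseudokinase gene Trib3 higher (1.77 ± 0.072), Stat3 was higher (0.55 ± 0.037) and Arid5a lower (-1.35 ± 0.10).

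Most reads of each gene went to 1 or a few annotated transcripts, as the authors' software divided them. Snai1, Snai2 and Twist1 have 1 transcript each in the files, and 1 of 2 transcripts held at least 99.2% of Twist2. For Cdh2, the most abundant of 3 transcripts held 59.9% to 67.7% of the gene's FPKM in WT and 59.8% to 65.97% in KO, so the make-up overlapped between the genotypes while the level did not. The most abundant of 12 Zeb1 transcripts held 60.3% to 68.4% of the gene in WT and 49.8% to 59.8% in KO. Zeb2 was spread over 30 transcripts, 7 of which reached 1 FPKM in some library, and the most abundant held 35.0% to 41.1% in WT and 39.1% to 50.1% in KO. An antisense gene, Zeb2os, overlaps Zeb2 and was at 2.60 FPKM or less in every library.

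The 2 mesenchymal cadherins were set against the rest of their family, 23 other classical and atypical cadherin genes, of which 7 were tested. In untreated KO against WT, 3 of the 7 were higher and 4 lower (71.0% of all tested genes were called), with a median log2 change of -0.66 against 0.01 over all tested genes. Cdh13 (T-cadherin, a membrane-anchored cadherin without a cytoplasmic tail) was at 60.3 FPKM on average in untreated WT and 0.00745 FPKM in untreated KO, where it was at 0 in 1 of the 2 libraries. Cdh3 (P-cadherin, of basal epithelia and mesothelium) went from 5.599 FPKM in WT to 83.9 FPKM in KO, a log2 change of 3.69 ± 0.066 (adjusted p = 5.83e-09). Cdh1 (E-cadherin), the standard target of Snail and ZEB repression, went from 0.464 FPKM to 6.08 FPKM, a log2 change of 2.28 ± 0.081 (adjusted p = 1.96e-07). The photoreceptor cadherin gene Cdhr1 went from 14.0 FPKM to 0.214 FPKM. Cdh1 rose beside Cdh2 in KO, and Cdh2 was still 13.5 to 14.7 times the Cdh1 level in each KO library.

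A different set was summed next, the 23 genes named Cdh with a number, which holds Cdh2 and Cdh11 but not Cdhr1. Its summed level was 188 to 197 FPKM in WT and 233 to 242 FPKM in KO. Cdh11 made up 42.0% to 43.7% of that sum in WT and 22.8% to 24.1% in KO, and Cdh2 11.6% to 12.9% in WT and 34.2% to 37.1% in KO. Cdh13 held 31.4% to 35.2% in WT and at most 0.0483% in KO, while Cdh3 held 1.52% to 3.16% in WT and 33.2% to 35.2% in KO. The WT libraries thus held mainly Cdh11, Cdh13 and Cdh2 transcripts. The KO libraries, in which the summed mesothelial markers were higher, held mainly Cdh2, Cdh3 and Cdh11.

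**Figure D3:**
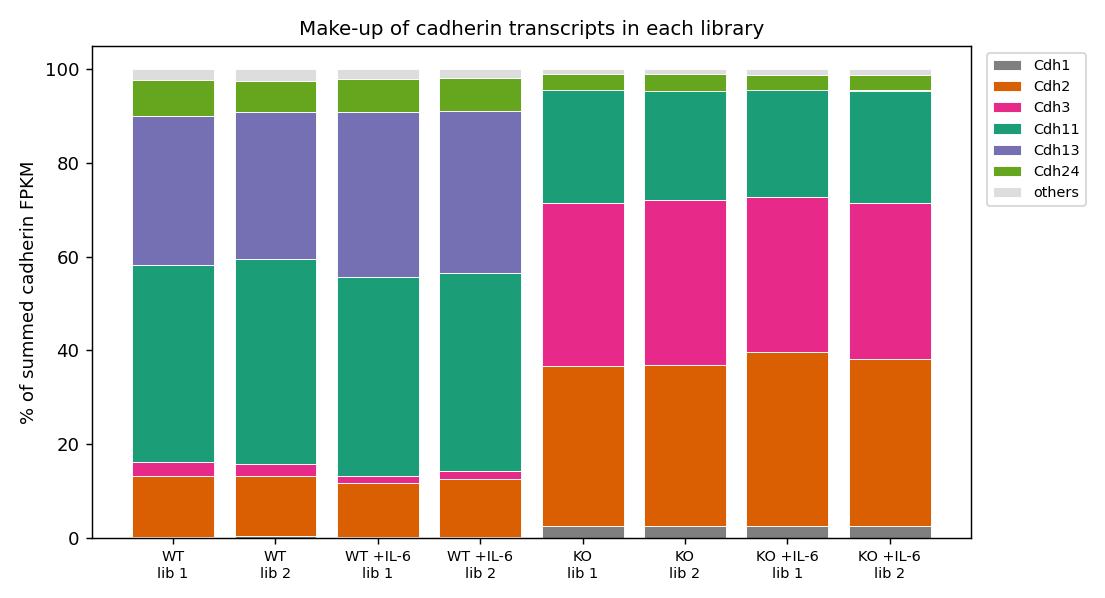
Share of the summed FPKM of 23 Cdh genes (vertical axis, %) taken by each cadherin gene in each of the 8 libraries. Cdh13 fills 31.4% to 35.2% of the WT bars and is nearly absent from the KO bars, where Cdh2 and Cdh3 together fill most of the height.

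Other transcription factors of the EMT and partners of the Twist proteins differed between the genotypes in both directions. Of 24 such genes 19 were tested, 6 were higher and 13 lower in untreated KO (71.0% of all tested genes were called), and the median log2 change was -0.64 against 0.01 over all tested genes. The homeobox gene Prrx1, which drives a mesenchymal programme in limb and tumour cells, was at 164 ± 2.64 FPKM in untreated WT and 18.6 ± 1.30 FPKM in untreated KO (log2 change -3.07 ± 0.055). Hand2, a helix-loop-helix partner of Twist1 in limb buds, changed by -4.17 ± 0.082 and the chromatin factor gene Hmga2 by -1.44 ± 0.042, both lower in KO. Prrx1 and Hand2 are also on the limb mesenchyme marker list.

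The dimer partners of the Twist proteins were read from 3 E protein genes and 3 Id genes. E proteins (Tcf3, Tcf4, Tcf12) pair with Twist on DNA, and Id proteins (Id1, Id2, Id3) bind E proteins without binding DNA. Their summed levels did not overlap between the genotypes, at 249 to 284 FPKM in WT and 115 to 126 FPKM in KO for the E proteins, and 256 to 316 FPKM in WT and 446 to 487 FPKM in KO for the Id genes. Tcf4 fell from 89.5 FPKM in untreated WT to 11.4 FPKM in untreated KO, a log2 change of -2.87, and Id1 rose from 28.6 FPKM to 159 FPKM, a change of 2.43. Tcf3 (-0.58) and Tcf12 (-0.95) were lower as well and Id3 (0.50) was higher, but Id2 was lower in KO (-0.37).

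IL-6 raised 2 and lowered 3 of the 19 tested genes in WT, where 15.7% of all tested genes were called. Sox4, a factor that acts in TGF-beta-driven EMT, fell from 17.7 FPKM to 9.57 FPKM (log2 change -0.82 ± 0.052, adjusted p = 9.78e-05), while in KO it was at 42.1 FPKM without and 43.6 FPKM with IL-6. Id3 rose (0.38 ± 0.052), and Tcf12 (-0.32 ± 0.047) and Hmga2 (-0.20 ± 0.042) fell. The call for Hmga2 ended when any 1 of the 4 WT libraries was left out.

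Proteins that the Snail, Twist and ZEB factors recruit, or that control their turnover, were read from 31 genes, of which 29 were tested. In untreated KO 13 were higher and 7 lower, a share near the 71.0% called over all tested genes, with a median log2 change of 0.00 against 0.01 over all tested genes. The histone deacetylase gene Hdac1 was lower in KO (-0.77 ± 0.030), and the histone methyltransferase gene Ezh2 (1.13 ± 0.051) and the LIM protein genes Wtip (1.37 ± 0.072) and Ajuba (0.81 ± 0.046) were higher. With IL-6 in WT, 3 rose and 1 fell, all by less than 0.36 on the log2 scale, a share near the 15.7% over all tested genes. Fbxl5, an F-box protein gene that acts in Snai1 turnover, rose (0.35 ± 0.063), as did the casein kinase gene Csnk1a1 (0.13 ± 0.031) and the phosphatase gene Ctdsp1 (0.17 ± 0.043), and Ajuba fell (-0.22 ± 0.046). Each of these 4 calls ended under at least 1 alternative, and those for Csnk1a1 and Ctdsp1 ended under most of them.

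The epithelial genes that Snail and ZEB proteins are known to repress were for the most part low in WT and partly raised in KO. Of 40 such genes 22 were tested, and 13 were higher and 5 lower in untreated KO, with a median log2 change of 1.005. Over all tested genes 71.0% were called and the median was 0.01. With IL-6, 15 were higher and 4 lower in KO. Of the 40 genes, 12 had a mean of at least 1 FPKM in WT and 20 in KO. Genes that passed the filter through KO libraries alone could only be higher in KO, which weighs on these counts and the median. The simple-epithelium keratin gene Krt19 was at 6.03 ± 0.117 FPKM in untreated WT and 253 ± 9.53 FPKM in untreated KO (log2 change 5.17 ± 0.091). Lsr was at 0.129 FPKM and 43.1 FPKM (5.29 ± 0.081), and Krt7 at 0.0475 FPKM and 36.1 FPKM (5.14 ± 0.064).

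The rise was not shared by all epithelial genes. Cldn7 (-1.52) and Elf3 (-1.85) were lower in KO, and Epcam, the second promoter shown above, stayed between 0.421 and 0.662 FPKM in all 8 libraries. The splicing regulator gene Esrp2 was higher in KO (2.70), whereas its paralog Esrp1 did not exceed 0.0144 FPKM. Summed epithelial markers reached 331 to 347 FPKM in KO and 7.81 to 10.3 FPKM in WT. In untreated KO 5 of 6 tested markers were higher and 1 lower (71.0% of all tested genes were called). A mean of at least 1 FPKM was reached by 2 markers in WT and 5 in KO, so the filter set the direction of some. Krt5, Cldn4 and Esrp1 were at or near 0 throughout. Krt14, which is not on the mesothelial marker list, was at 0 in every WT library. Its mean was 65.1 FPKM in untreated KO and 61.9 FPKM in IL-6-treated KO, so it passed the filter through KO alone. Krt8, Krt18 and Krt19 stand on both the epithelial and the mesothelial marker list, and the part of these markers in the result was not tested.

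IL-6 in WT lowered 3 of the 22 tested epithelial genes and raised 1, a share near the 15.7% called over all tested genes. Cdh3 fell by -0.73 ± 0.066, the plakophilin gene Pkp1 by -0.67 ± 0.092 and the protease inhibitor gene Spint2 by -0.48 ± 0.071, and the membrane trafficking gene Mal2 rose by 0.50 ± 0.10. The Mal2 call ended under 4 of the alternatives. Among 16 epithelial transcription factor genes beside Grhl2 and Ovol1, 2 reached the filter, and 1 of these was higher in KO. Between the untreated genotypes 71.0% of all tested genes were called. The higher gene was Foxa2, a factor of endoderm-derived epithelia, listed at 0 in all 4 WT libraries and at 17.8 ± 0.102 FPKM in untreated KO. It thus passed the filter through KO alone.

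**Figure D4:**
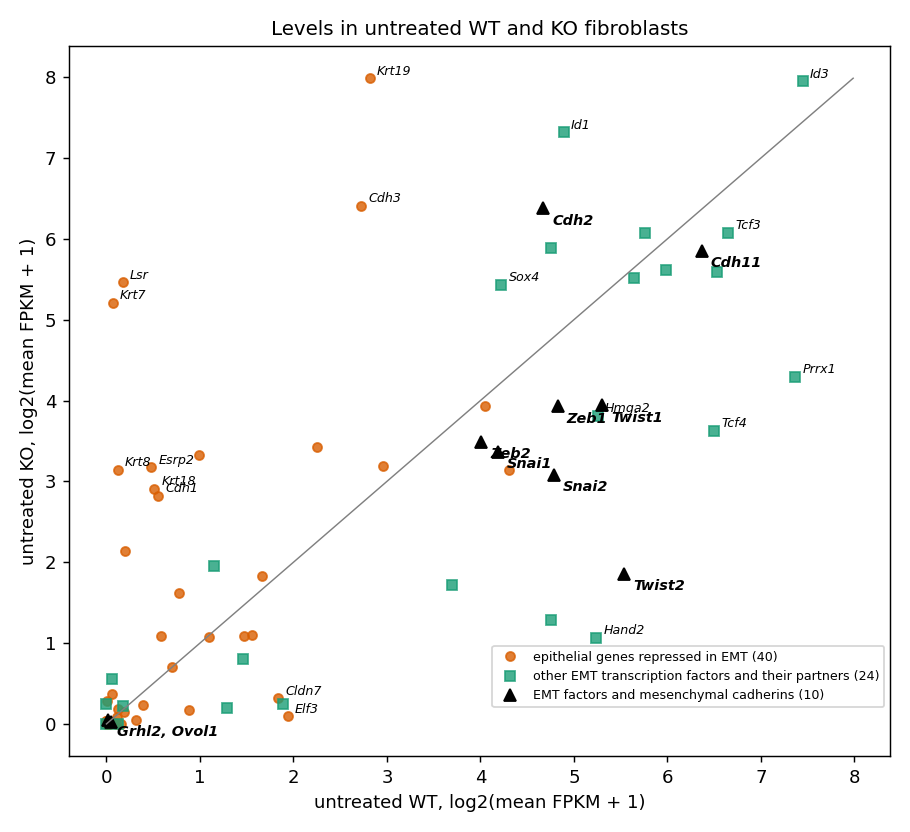
Mean level in untreated KO (vertical axis) against untreated WT (horizontal axis), both as log2(mean FPKM + 1) of 2 libraries, for the 10 genes, 24 other EMT factors and partners and 40 epithelial genes, with a line of equal level. The 6 mesenchymal factors and Cdh11 lie below the line and Cdh2 above it, and Lsr, Krt7 and Krt19 lie farthest above it.

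Mesenchymal genes of the EMT did not move as a block. Of 35 such genes 33 were tested, 17 were higher and 13 lower in untreated KO (71.0% over all tested genes), and the median log2 change was 0.24. The matrix protein gene Postn (periostin) was at 483 ± 15.4 FPKM in untreated WT and 10.1 ± 0.406 FPKM in untreated KO (-5.44 ± 0.080), and Tgfbi (-2.68 ± 0.042) and the receptor gene Pdgfrb (-2.62 ± 0.046) were lower as well. The gelatinase gene Mmp2 was at 7.28 ± 0.101 FPKM and 261 ± 5.40 FPKM (4.99 ± 0.052), and fibronectin (Fn1) was also higher (2.28), whereas vimentin (Vim) was lower (-1.08).

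With IL-6 in WT, 7 of these 33 rose and 15 fell, against 15.7% called over all tested genes. The smooth muscle genes Acta2 (-1.41 ± 0.052) and Tagln (-1.08 ± 0.062) and the collagen gene Col1a2 (-0.60 ± 0.043) fell, and the stromelysin gene Mmp3 rose (1.30 ± 0.093). Twist1 fell in the same comparison. The sum of the smooth muscle and pericyte markers in WT was 145 to 146 FPKM without and 75.8 to 82.6 FPKM with IL-6. In KO it was higher, at 602 to 628 FPKM without and 574 to 607 FPKM with IL-6. Acta2 and Tagln are on that list and made up most of each sum. With IL-6 in WT, 3 of its 5 tested markers fell and 1, Mcam, rose (0.43 ± 0.066, adjusted p = 0.00530 in limma). The part of these markers in the result was not tested.

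Catenins and other proteins that link cadherins to the cytoskeleton were read from 20 genes, of which 15 were tested. In untreated KO 8 were higher and 4 lower (71.0% over all tested genes), with a median log2 change of 0.12. The sheddase gene Adam10, whose protein cleaves N-cadherin, was higher (1.45 ± 0.037), as were vinculin (Vcl, 0.98 ± 0.041) and p120-catenin (Ctnnd1, 0.73 ± 0.039), and the actin-binding protein gene Lima1 was lower (-0.82 ± 0.040). IL-6 in WT lowered 4 of the 15 and raised 0, against 15.7% called over all tested genes. These were afadin (Afdn, -0.59 ± 0.060), Vcl (-0.32 ± 0.041), alpha-actinin (Actn1, -0.19 ± 0.037) and Ctnnd1 (-0.17 ± 0.039). The call for Actn1 ended in some of the fits that left out a library, and that for Ctnnd1 in most of them.

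TGF-beta signalling is the best known inducer of the Snail, Twist and ZEB genes. Of 21 genes of this pathway 20 were tested, and 10 were higher and 6 lower in untreated KO (71.0% over all tested genes), with a median log2 change of 0.17. The ligand genes Bmp2 (3.89 ± 0.069) and Tgfb2 (2.12 ± 0.056) were higher, and the latent TGF-beta binding protein gene Ltbp1 (-1.96 ± 0.042) and the co-receptor gene Tgfbr3 (-2.65 ± 0.087) were lower. With IL-6 in WT 6 rose and 5 fell (15.7% over all tested genes), among them the ligand genes Tgfb2 (-0.91 ± 0.056) and Tgfb3 (-0.67 ± 0.037) and the activin subunit gene Inhba (-0.62 ± 0.079), which fell, and Tgfbr3 (0.84 ± 0.087), which rose.

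No list gene passed for IL-6 in KO. In the limma fit 0 of the 152 tested genes of all these lists passed, against 3 of all 13693 tested genes (0.0219%). An unadjusted p below 0.05 was found for 19 of the 152 and for 1025 of the 13693.

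For each tested gene the pair of genes with the most similar profile was found by the root mean square difference of gene-centred log2(FPKM + 1) over the 8 libraries. The closest match of all was Abhd17c to Cdh2, at 0.02. The others at first rank were Snx13 for Cdh11 (0.03), Ghr for Twist1 (0.04), Hspb6 for Snai2 (0.05), Gas1 for Snai1 (0.05), Xxylt1 for Zeb1 (0.06), Kcnip3 for Zeb2 (0.06) and Rab3il1 for Twist2 (0.07). At second rank stood 2310030G06Rik for Cdh2, Tmed8 for Cdh11, Tceal1 for Twist1, Slc11a2 for Snai2, Ndrg3 for Zeb1, Zfas1 for Zeb2 and Tbx4 for Twist2. Tbx4 is on the limb mesenchyme list, and Ghr, which encodes the growth hormone receptor, stood at 59.5 and 60.4 FPKM for untreated WT and, like Twist1, lower in all KO libraries. These profiles share the 8 libraries, and 71.0% of all tested genes differed between the untreated genotypes.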

How the data were processed

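RNA of 8 MEF libraries was isolated with RNeasy columns, and the TruSeq stranded kit for mRNA was used for sequencing libraries, per the labels' protocols. Per the submitters' processing notes HISAT2, Cufflinks 2.2.1 and the build GRCm38.p6 were used. The authors deposited 1 table of FPKM per transcript for each library (142869 transcripts), and their counting options and annotation are not given in the sources used here. Transcripts were summed to 55358 genes with pandas 2.3.3.

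Genes of at least 1 FPKM in at least 2 libraries were tested on log2(FPKM + 1) with limma 3.58.1 in R 4.3.3 (empirical Bayes with an intensity trend, 4 group means, 4 residual degrees of freedom), and p-values were adjusted by the Benjamini-Hochberg method over 13693 genes, with 0.05 as threshold. Log2 changes on this scale understate those of low genes. The fit was tested on simulated data. Depth was fitted to the steps of low FPKM values, of which 93.5% to 95.0% came within 0.1 of a whole fragment. No count test was run on these fitted fragments.

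The 10 genes, the gene lists and the marker lists were chosen with earlier results of these data known, and partly overlap. The text names all 10 genes, Arid5a, the 2 most similar genes of each tested one and, of each list, up to 4 called genes with the smallest p in untreated KO against WT and in IL-6 in WT, besides genes needed for a sentence on levels. A few genes that this rule names are not reported here. Alternatives were other scalings, pseudocounts of 0.1 and 5, filters, no trend, a replicate block, the compared groups alone and each library left out. The same alternatives for list genes were added after seeing the data. Gene positions come from GENCODE M21 on GRCm38.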

Additional observations from a re-analysis of the deposited data

Results flagged for a closer look

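Several genes were singled out because their IL-6 change differed between the genotypes by the test of that difference, the IL-6 change in KO minus that in WT on the log2 scale (limma, adjusted over 13693 genes). Twist1 was the 1 gene among the 10 described, at 0.46, with levels of 38.5 and 30.0 FPKM without and with IL-6 in WT and 14.4 and 15.5 FPKM in KO. Among the genes named from the lists, the difference was positive for Sox4 (0.87), Cdh3 (0.62), Cdhr1 (0.75), Col1a2 (0.53), Acta2 (1.33), Tagln (1.05), Vim (0.32), Afdn (0.58), Vcl (0.36), Tgfb2 (0.75), Tgfb3 (0.64) and Inhba (0.64), each of which was lower with IL-6 in WT. It was negative for Il6 (-1.50), Il6st (-0.42), Stat3 (-0.42), Socs3 (-0.80), Mmp3 (-0.92), Tgfbi (-0.43) and Tgfbr3 (-0.62), each of which was higher with IL-6 in WT. The calls for Twist1, Cdh3, Cdhr1, Vim, Vcl, Tgfbr3 and Inhba ended under at least 1 alternative. With 2 libraries a group, no library was tested for standing apart from its group.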

How the results depend on the processing

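Of 712 recomputed changes of the 8 tested genes, 699 kept direction and side of the threshold, 4 lost their call (the Twist1 difference between the IL-6 changes) and 9, all of uncalled changes, turned sign. With FPKM scaled to equal totals, Snai2 with IL-6 in WT was -0.0223. With 1 library left out, ranges were -0.0860 to 0.0616 for Zeb1 and -0.0350 to 0.0326 for Cdh11 with IL-6 in WT, -0.237 to 0.0359 for Zeb1 with IL-6 in KO, and -0.225 to 0.0481 for Zeb1 and -0.228 to 0.0716 for Zeb2 in the difference between the IL-6 changes, where the count of member genes called ranged from 0 to 1.

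Over all genes, 2150 were called for IL-6 in WT, 1212 when the compared groups were fitted alone and 1165 to 1774 with a library left out. For IL-6 in KO, 3 became 7 without a filter, 5 with a filter of 5 FPKM, 5 with the compared groups alone and 0 to 4 with a library left out. For the difference between the IL-6 changes, 830 became 521 without a filter and 383 to 523 with a library left out, and the compared groups alone give no value. Equal totals moved the share of higher calls from 52.8% to 34.7% for IL-6 in WT and from 41.9% to 55.1% for the difference. Total FPKM was 561948 and 553967 in untreated WT and 575698 and 584995 in IL-6-treated WT, so this scaling lowered treated WT values relative to untreated ones. Neither why the totals differed nor the cause of the other moves was tested.

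Same-numbered libraries did not deviate together (r from -0.097 to 0.055 over 13693 genes), so the numbers were not taken as pairs. With the replicate block 1696 genes were called for IL-6 in WT, 2 for IL-6 in KO, 9566 and 9685 between the genotypes and 564 for the difference, and no call of the 8 genes changed. Of 5581 recomputed changes of named list genes, 115 lost and 28 gained a call, and 0 reversed. Taking only the highest transcript moved the untreated WT level of Zeb1 to 17.2, Zeb2 to 5.61, Cdh2 to 14.9 and Grhl2 to 0 FPKM. Depth limits Grhl2 and Ovol1.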
